A study of Mus musculus with 6 samples.

Results

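The CC chemokines are small secreted proteins, and 10 of their genes were followed here in macrophages labelled Cd226-/-: Ccl2, Ccl3, Ccl4, Ccl5, Ccl6, Ccl7, Ccl9, Ccl12, Ccl17 and Ccl22. They were chosen by gene symbol, and all 10 have a row among the 46095 genes of the deposited count table. The libraries come from bone marrow-derived macrophages of 56-day-old C57BL/6 mice, Cd226-/- in 3 libraries and wild type (WT) in 3. All 6 samples received M-CSF (20 ng/ml, 7 days), the growth factor that turns marrow cells into macrophages, and then IFN-γ at 20 ng/ml with LPS at 100 ng/ml for 24 h. No unstimulated library is part of the design, so every value is a level after this M1-type stimulus. How the Cd226 allele was made, and whether the replicates are separate mice or cultures, is not given in the sources used here. The p-values therefore measure the spread between these libraries, which may be technical.

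CC chemokines act through G protein-coupled receptors on leukocytes and set up gradients along which the cells move. Macrophages that meet LPS and IFN-γ transcribe many of them through NF-kB and interferon regulatory factors. Ccl2, Ccl7 and Ccl12 draw monocytes through CCR2; Ccl3, Ccl4 and Ccl5 draw monocytes and T cells, Ccl3 and Ccl5 in part through CCR1. Ccl6 and Ccl9 are rodent ligands of CCR1, and Ccl17 and Ccl22 draw regulatory and type 2 helper T cells through CCR4.

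Libraries held 16838527 to 21658061 counts, and 1 count was worth 0.0452 to 0.0600 CPM, the count relative to library size after scaling by edgeR's TMM method. Of 7 macrophage markers 4 were higher and 2 lower in Cd226-/-. Their summed level was 18599 to 19396 CPM in Cd226-/- and 17171 to 19128 CPM in WT libraries. The sum is mostly Lyz2, which was not called, so its overlap says little about the other markers. Cd226 itself had 11, 10 and 8 counts in the libraries labelled Cd226-/- (replicates 1 to 3) and 5, 17 and 23 counts in those labelled WT. The ratio of summed counts was 0.696 (95% exact interval 0.421 to 1.14, counting error only), so Cd226 reads were not absent from the libraries labelled Cd226-/-. Its level did not separate the genotypes, and which part of the gene the allele removes is not given in the sources used here. The genotype names used are therefore those of the labels, which these counts do not check. The first principal component of log2 CPM (61.4% of variance) separated the genotypes, and the second (14.2%) set Cd226-/- replicate 1 apart from replicates 2 and 3. In edgeR's quasi-likelihood test with Benjamini-Hochberg adjustment, 30.9% of the 13215 genes tested had an adjusted p under 0.05. Higher in Cd226-/- were 2130 genes (16.1%) and lower 1956 (14.8%). Scaling by total counts in place of TMM gave 1773 higher and 2764 lower.

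Ccl5, Ccl12 and Ccl22 were higher in Cd226-/- macrophages, by 1.52-fold, 1.85-fold and 1.5-fold, and Ccl2 was lower, at 0.839 of the WT level. Ccl3, Ccl4, Ccl6, Ccl7 and Ccl9 did not pass the test, and Ccl17 had too few counts to be tested. Thus 4 of the 9 members tested were called (44.4%), beside 30.9% of all genes, a share that with 9 genes is too near the background to be read as a property of the family. The median log2 fold change of the 9 was 0.063, against -0.0045 over all genes tested. For 4 of the 9 the genotypes did not overlap in CPM, against 44.3% of all genes tested. The 3 rises held under each of the 14 alternatives tried, and so did the fall of Ccl2.

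**Figure D1:**
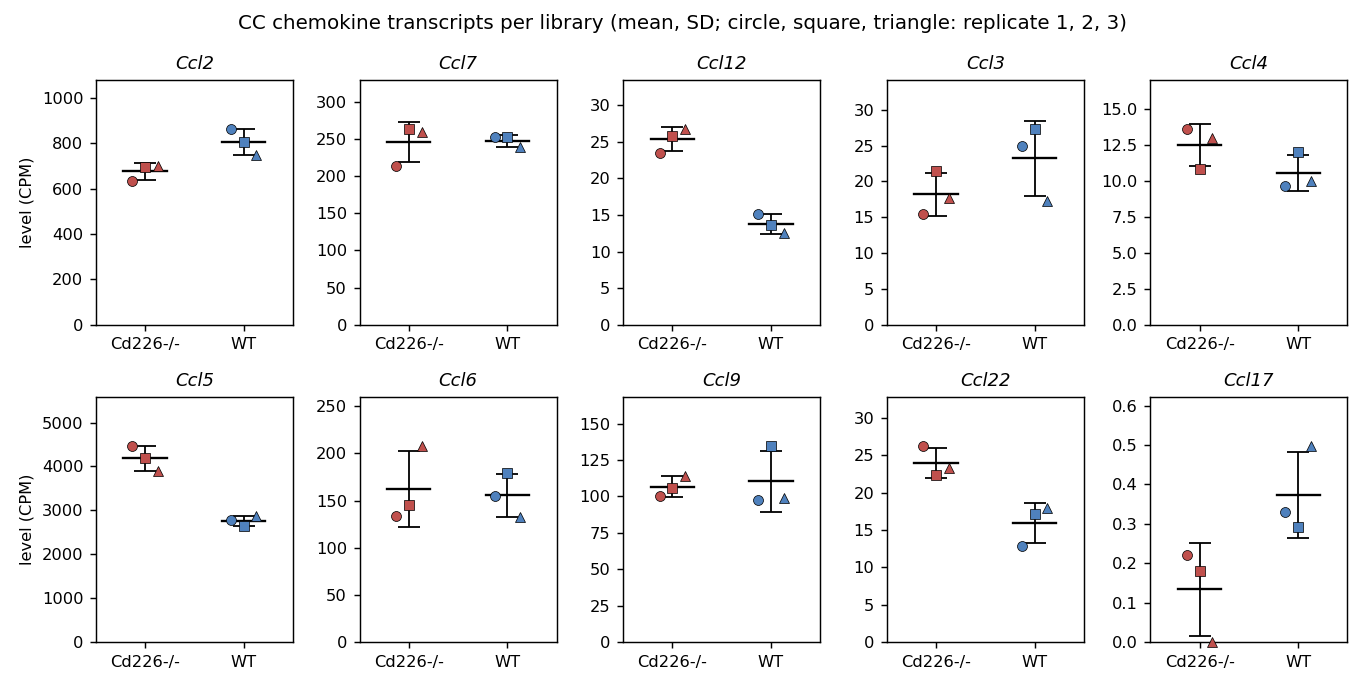
Level of each of the 10 CC chemokine genes in CPM (linear axis from 0, own scale per panel) in the 3 Cd226-/- and 3 WT libraries, with the mean and SD of each genotype. Cd226-/- libraries lie wholly above WT for Ccl5, Ccl12 and Ccl22 and wholly below for Ccl2 and for Ccl17, which is near the counting limit.

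Levels of different genes were compared per length, as CPM per kilobase of the longest protein-coding GENCODE transcript. The annotation used for counting is not given in the sources used here, so places that lie close may depend on the transcript chosen. Ccl5 was the most abundant member in both genotypes, at 7864 ± 529 CPM per kb in Cd226-/- and 5188 ± 206 in WT (SD, n = 3 each). Ccl2 followed at 833 ± 44.9 in Cd226-/- and 992 ± 71.4 in WT, then Ccl7 at 307 ± 34.4 and 309.6 ± 9.98, and Ccl6 at 113 ± 27.8 and 108 ± 15.9. The next places were close. In Cd226-/- libraries Ccl12 (43.8 to 49.9 CPM per kb) lay above Ccl9 (33.3 to 38.0) and Ccl3 (20.2 to 27.9). In WT libraries Ccl12 (23.2 to 28.3) overlapped Ccl3 (22.6 to 35.7), and Ccl3 overlapped Ccl9 (32.5 to 44.8). Ccl4 came after them at 18.9 ± 2.19 in Cd226-/- and 16.0 ± 1.91 in WT, and its Cd226-/- range (16.4 to 20.6) overlapped that of Ccl3. Ccl22 lay below Ccl4 in every library, at 10.8 ± 0.922 in Cd226-/- and 7.19 ± 1.23 in WT. Ccl17 was last.

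Because Ccl5 is so abundant, it set the sum of the family. Together the 10 members made up 0.527% to 0.563% of counts on the TMM scale in Cd226-/- libraries and 0.409% to 0.421% in WT libraries. Without Ccl5 the sum was 1162, 1293 and 1362 CPM in Cd226-/- replicates 1 to 3 and 1433, 1444 and 1277 CPM in WT replicates 1 to 3, and the genotypes overlapped. Per length, Ccl5 transcripts were 83.3% to 86.9% of all member transcripts in Cd226-/- and 76.0% to 79.2% in WT, and Ccl2 transcripts 8.08% to 9.76% in Cd226-/- and 13.6% to 15.6% in WT. The ratio of Ccl5 to Ccl2 CPM was 7.04, 6.00 and 5.59 in Cd226-/- replicates 1 to 3 and 3.21, 3.27 and 3.82 in WT replicates 1 to 3.

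**Figure D2:**
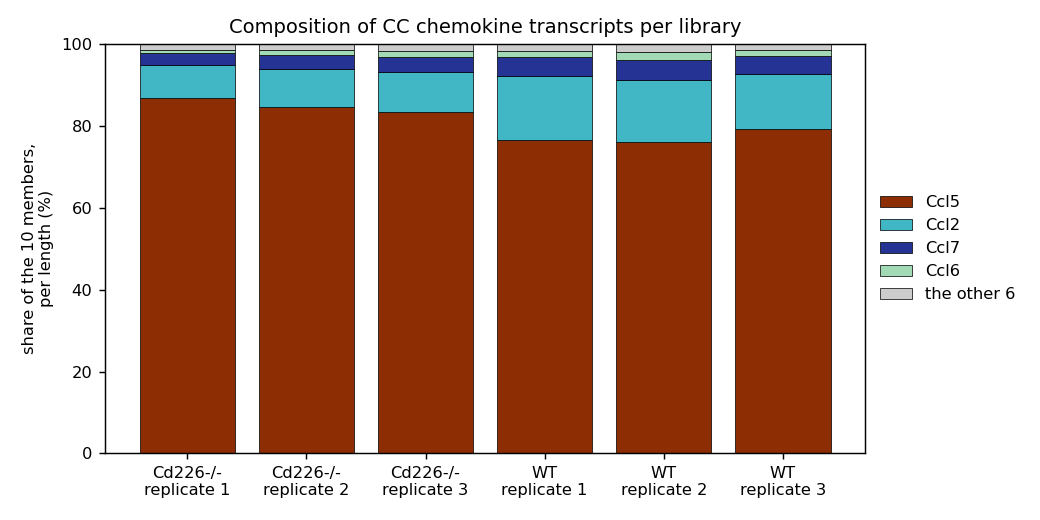
Share of each CC chemokine in the summed per-length level of the 10 members (percent, stacked bars, 1 bar per library). Ccl5 takes 83.3% to 86.9% in the Cd226-/- bars and 76.0% to 79.2% in the WT bars, and Ccl2 is the second largest share in every bar.

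The monocyte chemoattractant genes lie near each other on chromosome 11 and did not move together. Ccl2 (chromosome 11, 82035571 to 82037453, GRCm38), the main CCR2 ligand, had 635, 697 and 699 CPM in Cd226-/- replicates 1 to 3 and 864, 808 and 748 CPM in WT replicates 1 to 3. The highest Cd226-/- library stayed below the lowest WT library. Ccl2 fell by 0.25 on the log2 scale (SE 0.057, adjusted p = 0.00169), with 677 ± 36.5 CPM in Cd226-/- and 807 ± 58.0 CPM in WT (SD, n = 3 each). It is among the most deeply counted members, at a mean of 13685 counts per library, and its fall is the smallest of the 4 called differences.

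Ccl7, which also binds CCR2 and other receptors, had 214, 264 and 260.0 CPM in Cd226-/- replicates 1 to 3 and 252, 253 and 239 CPM in WT replicates 1 to 3. Cd226-/- replicate 1 was the lowest of the 6 libraries and the other Cd226-/- libraries were the highest. The log2 fold change was -0.01 with a 95% interval of -0.15 to 0.13 (adjusted p = 0.922). When Cd226-/- replicates 2 and 3 were left out together, Ccl7 was called lower (log2 fold change -0.20, adjusted p = 0.0185, the lowest over its alternatives, which reached 0.999).

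Ccl12, the mouse chemokine MCP-5 and another CCR2 ligand, had the largest rise of the family. It had 23.5, 25.8 and 26.8 CPM in Cd226-/- replicates 1 to 3 and 15.2, 13.7 and 12.5 CPM in WT replicates 1 to 3. Every Cd226-/- library lay above every WT library with a gap larger than the spread within either genotype. The log2 fold change was 0.88 ± 0.099 (SE, adjusted p = 5.11e-07). Per length, Ccl12 reached 5.61% to 5.81% of the Ccl2 level in Cd226-/- libraries and 2.53% to 2.66% in WT libraries.

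Ccl8 (MCP-2), the neighbour of Ccl12 and one of 14 further CC chemokine genes examined, rose by nearly the same amount. It had 17.2, 17.7 and 18.4 CPM in Cd226-/- replicates 1 to 3 and 8.88, 10.3 and 9.91 CPM in WT replicates 1 to 3, with no overlap. Its log2 fold change was 0.87 ± 0.11 (SE, adjusted p = 2.29e-06). The first cluster spans 81.2 kb of chromosome 11 from Ccl2 through Ccl7 and Ccl12 to Ccl8. The log2 fold changes of these 4 genes were thus -0.25, -0.01, 0.88 and 0.87. Only these 4 were placed along it. Ccl11, with 0, 3 and 0 counts in Cd226-/- and 0, 0 and 3 in WT replicates 1 to 3, was neither placed nor tested. No stretch of 50 bases in the Ccl2, Ccl7, Ccl12 or Ccl8 transcripts occurs in a transcript of another gene in GENCODE M21, so exact 50-base matches do not tie the 4 counts together.

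**Figure D3:**
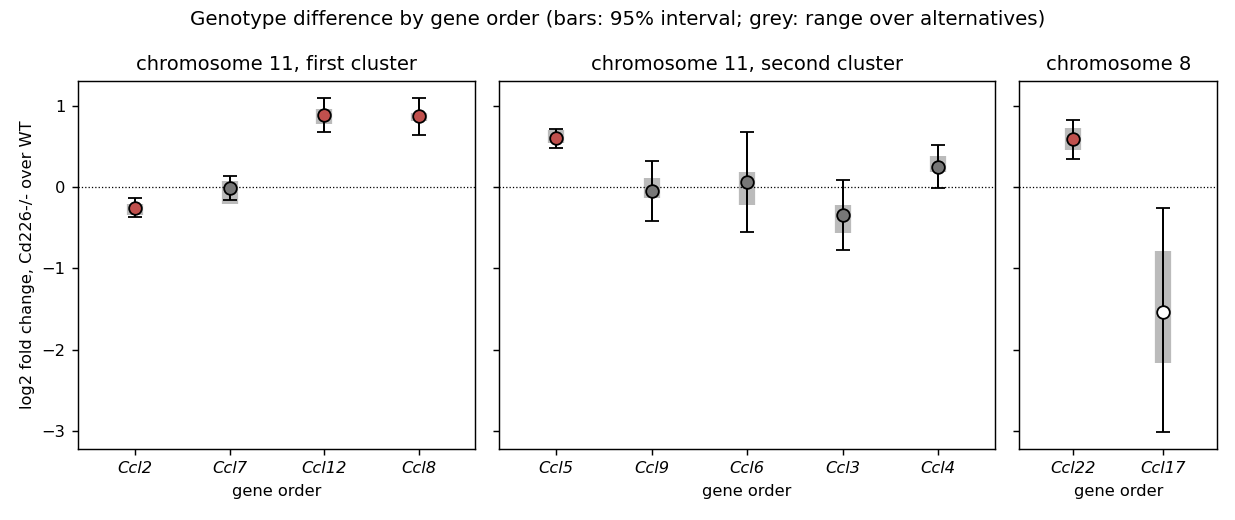
Log2 fold change (Cd226-/- over WT) of CC chemokines in their order along chromosome 11 and chromosome 8, with 95% intervals (black) and the range over all alternatives (grey). Red points passed the test and grey points did not; the open point, Ccl17, was not tested and shows a ratio of summed counts. Ccl12 and Ccl8 sit together at 0.88 and 0.87 while Ccl2 and Ccl7, in the same cluster, are at -0.25 and -0.01.

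The 250 bases before the RefSeq start of Ccl12 and of Ccl8 (both plus strand, GRCm38.p6) are printed because these neighbours rose together. Capitals mark the TATA box letters TATAAA, searched only on the printed strand, which reads in the direction of the gene. The Ccl12 stretch is chr11:82101595-82101844 and the Ccl8 stretch chr11:82114935-82115184.
Ccl12: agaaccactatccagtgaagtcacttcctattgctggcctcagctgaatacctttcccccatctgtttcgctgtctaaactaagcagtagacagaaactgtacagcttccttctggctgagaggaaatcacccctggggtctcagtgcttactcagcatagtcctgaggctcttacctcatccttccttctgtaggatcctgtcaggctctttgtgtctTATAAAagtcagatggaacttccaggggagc
Ccl8: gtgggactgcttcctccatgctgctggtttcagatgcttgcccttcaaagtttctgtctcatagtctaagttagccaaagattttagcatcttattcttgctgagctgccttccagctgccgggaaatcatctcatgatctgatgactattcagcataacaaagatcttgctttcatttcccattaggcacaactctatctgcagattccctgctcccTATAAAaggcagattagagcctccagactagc

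TATAAA begins 31 bases before the start in Ccl12 and 32 bases before it in Ccl8. On the strand that reads in the direction of the gene, 7.59% of 32851 mouse promoter windows of this length hold TATAAA. A global alignment placed 150 identical bases between the windows (60.0% of 250), the highest of the 21 pairs among the 7 promoters compared. The other pairs gave 48.8% to 57.2%, with Ccl12 and Ccl6 the next highest. Neither window holds the NF-kB consensus, the interferon response letters GAAANNGAAA, the STAT6-type letters TTCNNNNGAA or the AP-1 letters TGANTCA on either strand. Their shares over all windows are 7.25%, 2.98%, 5.85% and 6.75%. The RefSeq promoter table matched 6 of the 10 members (Ccl3, Ccl6, Ccl9, Ccl12, Ccl17 and Ccl22); Ccl2, Ccl4, Ccl5 and Ccl7 had no entry. Among the 6, Ccl9 alone held the NF-kB consensus and the AP-1 letters, and Ccl17 alone held the STAT6-type letters. Besides Ccl12, only Ccl9 of the 6 held TATAAA, 92 bases before its start. These matches describe letters and not binding.

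Ccl5 (RANTES; chromosome 11, 83525778 to 83530518, GRCm38, minus strand), which recruits T cells and monocytes, opens the second cluster. It had 4467, 4181 and 3904 CPM in Cd226-/- replicates 1 to 3 and 2778, 2643 and 2860 CPM in WT replicates 1 to 3. Every Cd226-/- library lay above every WT library. The log2 fold change was 0.60 ± 0.057 (SE, adjusted p = 4.08e-08), and by p Ccl5 ranked 168 of the 13215 genes tested. T and NK cells also make Ccl5. Of 6 T and NK markers 5 were tested and 0 were called by edgeR, DESeq2 or limma, with 1 at an unadjusted p under 0.05. Their summed level was 6.45 to 6.92 CPM in Cd226-/- and 4.44 to 5.70 CPM in WT libraries, and their part in the Ccl5 difference was not tested.

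Ccl3 and Ccl4, both macrophage inflammatory protein genes, encode ligands that are usually induced early by LPS. Ccl3 had 15.5, 21.4 and 17.6 CPM in Cd226-/- replicates 1 to 3 and 24.9, 27.3 and 17.3 CPM in WT replicates 1 to 3. WT replicate 3 lay inside the Cd226-/- range, whereas WT replicates 1 and 2 lay above it. The log2 fold change of -0.35 had a 95% interval of -0.77 to 0.08 and did not pass (adjusted p = 0.202). Without WT replicate 3 it was -0.53 (adjusted p = 0.00428), and it also passed with no filter on low counts (adjusted p = 0.00311), over a range of 0.00311 to 0.435 for all its alternatives.

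Ccl4 had 13.6, 10.9 and 12.96 CPM in Cd226-/- replicates 1 to 3 and 9.64, 12.0 and 9.997 CPM in WT replicates 1 to 3. The genotypes overlapped through Cd226-/- replicate 2 and WT replicate 2. Its log2 fold change was 0.25 with a 95% interval of -0.02 to 0.51 (adjusted p = 0.146), and no alternative called it. Ccl3 and Ccl4 are in opposite orientation, and the RefSeq bounds of these genes overlap by 755 bases, while GENCODE exons of the pair do not overlap. The strand setting of the counting is not given in the sources used here, so reads from the overlap cannot be assigned to either gene.

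Ccl6 and Ccl9, both CCR1 ligands, did not pass the test. Ccl6 had 133, 146 and 208 CPM in Cd226-/- replicates 1 to 3 and 155, 179 and 133 CPM in WT replicates 1 to 3. Cd226-/- replicate 3 was the highest library and replicate 1 of the same genotype was near the lowest. The log2 fold change of 0.06 had a 95% interval of -0.56 to 0.68 (adjusted p = 0.871). Its sign turned negative in some alternatives, with values of -0.21 to 0.19. Ccl9 had 100.2, 106 and 114 CPM in Cd226-/- replicates 1 to 3 and 97.8, 135 and 98.9 CPM in WT replicates 1 to 3, with WT replicate 2 above the other 5. Its log2 fold change was -0.05 with a 95% interval of -0.41 to 0.32 (adjusted p = 0.848). In Ccl9, 2.00% of 50-base stretches also occur in other genes' transcripts.

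The CCR4 ligands Ccl22 and Ccl17 lie 66.4 kb from end to end on chromosome 8 and differed in level. Ccl22 (94745590 to 94751699, GRCm38) had 26.2, 22.3 and 23.3 CPM in Cd226-/- replicates 1 to 3 and 12.8, 17.1 and 17.9 CPM in WT replicates 1 to 3. WT replicate 1 was the lowest library, and no WT library reached the Cd226-/- range. The log2 fold change was 0.59 ± 0.11 (SE, adjusted p = 4.78e-04), with 24.0 ± 2.04 CPM in Cd226-/- and 15.9 ± 2.73 CPM in WT (SD, n = 3 each).

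Ccl17 had 4, 3 and 0 counts in Cd226-/- replicates 1 to 3 and 6, 5 and 11 counts in WT replicates 1 to 3. The ratio of summed counts, 7 in Cd226-/- and 22 in WT, was 0.344 on scaled library sizes, with a 95% exact interval of 0.124 to 0.833 that covers counting error only. A count of 0 in Cd226-/- replicate 3 allows up to 3 counts, or 0.163 CPM. Without a filter on low counts the gene did not pass (adjusted p = 0.284). Per length, Ccl17 averaged 0.260 ± 0.228 CPM per kb in Cd226-/- and 0.725 ± 0.213 in WT (SD, n = 3 each), far below Ccl22.

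Promoter windows of 250 bases of the chromosome 8 pair are shown for this contrast, Ccl22 from chr8:94745434-94745683 and Ccl17 from chr8:94810203-94810452 (both plus strand, GRCm38.p6). The Ccl22 window ends just before the RefSeq start of the gene, 94745684. Its bases from 94745590 onward lie inside the GENCODE bounds of Ccl22 given above. The Ccl17 window ends just before the GENCODE start, 94810453, and lies inside the RefSeq bounds of Ccl17, which begin at 94809380. Capitals mark the STAT6-type letters TTCNNNNGAA.
Ccl22: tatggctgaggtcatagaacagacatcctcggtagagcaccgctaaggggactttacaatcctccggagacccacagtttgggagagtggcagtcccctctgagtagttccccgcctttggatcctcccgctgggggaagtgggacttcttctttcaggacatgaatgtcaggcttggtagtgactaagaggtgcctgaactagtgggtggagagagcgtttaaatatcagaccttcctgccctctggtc
Ccl17: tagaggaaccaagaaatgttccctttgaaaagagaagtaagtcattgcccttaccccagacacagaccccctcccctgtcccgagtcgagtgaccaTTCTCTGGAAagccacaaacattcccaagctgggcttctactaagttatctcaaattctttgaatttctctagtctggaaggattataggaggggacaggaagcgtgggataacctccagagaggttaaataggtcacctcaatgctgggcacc

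In Ccl17 these letters begin 154 bases before the GENCODE start. The Ccl22 window holds none of the 5 motifs searched.

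Dendritic cells are a known source of both CCR4 ligands. Of 8 dendritic cell markers 5 were tested, and Itgax and Ccr7 were higher in Cd226-/-. The summed level of all 8, mostly Ccr7 and Itgax, was 99.5 to 107 CPM in Cd226-/- and 68.3 to 82.0 CPM in WT libraries. The other markers tested, Flt3, Zbtb46 and Clec9a, did not pass (adjusted p = 0.120, 0.943 and 0.652). Xcr1 and Siglech, markers of dendritic cell subsets, had 0 counts in every WT library and at most 3 in a Cd226-/- library. Cd209a, the remaining marker not tested, had 5, 2 and 1 counts in Cd226-/- replicates 1 to 3 and 7, 1 and 4 in WT replicates 1 to 3. Of 5 stromal markers 4 were higher, with a sum of 756 to 784 CPM in Cd226-/- and 488 to 566 CPM in WT libraries; stromal cells are a known source of Ccl2 and Ccl7. All 5 B cell markers were higher, at 30.0 to 39.3 CPM in Cd226-/- and 12.2 to 15.1 CPM in WT libraries. Of 5 monocyte markers 2 were higher and 1 lower, and their sum, mostly Ly6c2, was 250.2 to 273 CPM in Cd226-/- and 75.8 to 80.3 CPM in WT libraries. Of 7 neutrophil markers 3 were tested and 0 called by edgeR or limma, with 1 at an unadjusted p under 0.05 and 1 called by DESeq2, lower. Of 3 mast cell and basophil markers the 1 tested was higher, and all 3 erythroid markers had 0 counts. Beside these counts of markers, 16.1% of all genes tested were higher in Cd226-/- and 14.8% lower. The part of these markers in the chemokine differences was not tested. In bulk RNA more cells of a type and more RNA per cell cannot be told apart.

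Among the 14 further CC chemokine genes, 3 were tested and 6 had 0 counts in all 6 libraries. Of the 3 tested, 1 was called higher, Ccl8 (33.3% called, beside 30.9% of all genes). Ccl24 (eotaxin-2) had 15.9, 14.1 and 15.5 CPM in Cd226-/- replicates 1 to 3 and 13.9, 11.8 and 14.0 CPM in WT replicates 1 to 3, and missed the threshold (adjusted p = 0.180, log2 fold change 0.20). Ccl25 averaged 4.31 ± 0.467 CPM in Cd226-/- and 4.26 ± 0.869 CPM in WT (SD, n = 3 each; adjusted p = 0.945).

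Ccr2, Ccr7 and Ccrl2, which encode receptors or a receptor relative, were higher in Cd226-/-. Of 15 CC chemokine receptor genes 8 were tested, 4 were higher and 4 did not pass, a called share of 50% beside 30.9% of all genes. Ccr2, which binds Ccl2, Ccl7 and Ccl12, had 18.7, 20.3 and 23.1 CPM in Cd226-/- replicates 1 to 3 and 8.93, 10.3 and 10.1 CPM in WT replicates 1 to 3, with log2 fold change 1.08 ± 0.11 (SE, adjusted p = 1.61e-07). The genotypes did not overlap. In Ccr2, 2.27% of 50-base stretches also occur in transcripts of other genes.

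Ccr1, the receptor of Ccl6 and Ccl9 and a second receptor of Ccl3 and Ccl5, missed the threshold (adjusted p = 0.752, log2 fold change 0.03, 95% interval -0.10 to 0.15). With Cd226-/- replicates 2 and 3 left out together it was called higher (adjusted p = 0.0314; range over its alternatives 0.0314 to 0.990). Ccr4, the receptor of Ccl17 and Ccl22, had 12 counts over the Cd226-/- libraries and 15 over the WT libraries and was not tested. Ccr7, the lymph node homing receptor, was higher by 0.54 on the log2 scale (adjusted p = 0.00356). Without both Cd226-/- replicates 2 and 3 the log2 fold change was 0.45 and the call was lost (adjusted p = 0.0765, the highest over its alternatives). Ccrl2, a chemerin-binding relative of these receptors, was higher by 0.31 (adjusted p = 3.71e-04).

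**Figure D4:**
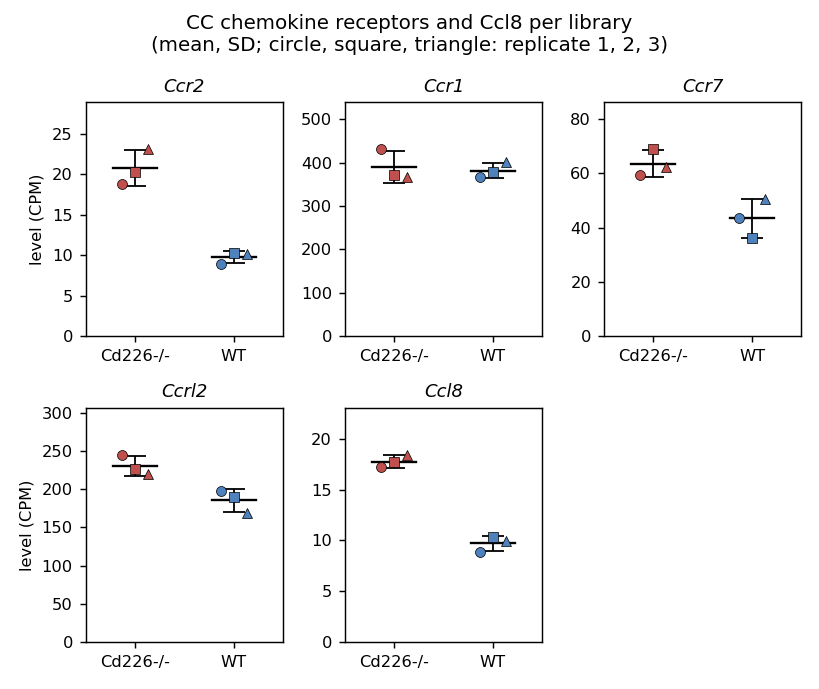
Level of 4 CC chemokine receptor genes and of Ccl8 in CPM (linear axis from 0, own scale per panel) in the 3 Cd226-/- and 3 WT libraries, with the mean and SD of each genotype. Ccr2, Ccr7, Ccrl2 and Ccl8 lie above WT in every Cd226-/- library, and Ccr1 overlaps.

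All 28 genes on a list of regulators of CC chemokine transcription or decay were tested, and 13 were higher and 2 lower. The share called was 53.6%, beside 30.9% of all genes, and the median log2 fold change was 0.11. The list and the 13 include Dpp4, which regulates neither transcription nor RNA decay (log2 fold change 1.07, adjusted p = 0.0227). Dpp4 stayed under the threshold in 9 of its 13 alternatives. The interferon regulatory factors Irf8, Irf1 and Irf7 rose 1.55-fold, 1.23-fold and 1.16-fold (adjusted p = 4.24e-08, 2.05e-04 and 0.00246), and Stat2, a partner in interferon signalling, rose 1.21-fold (adjusted p = 9.24e-04). The NF-kB subunit gene Rel rose 1.26-fold, or 0.33 on the log2 scale (adjusted p = 0.00479). With Cd226-/- replicates 2 and 3 left out the log2 fold change was 0.26 and the call was lost (adjusted p = 0.165, the highest over its alternatives). Rela, encoding the p65 subunit, missed the threshold (adjusted p = 0.332, log2 fold change 0.07). The AP-1 subunit gene Junb rose 1.17-fold (adjusted p = 0.00146).

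Irf4, a factor of alternatively activated macrophages and dendritic cells, had 12.0, 11.6 and 11.9 CPM in Cd226-/- replicates 1 to 3 and 7.51, 8.59 and 9.63 CPM in WT replicates 1 to 3 (1.37-fold, log2 fold change 0.46, adjusted p = 0.00833). Leaving out WT replicate 1 ended the call at a log2 fold change of 0.37 (adjusted p = 0.0524). Leaving out Cd226-/- replicates 2 and 3 together also ended it, at 0.49 (adjusted p = 0.0590), its highest value over the alternatives. Stat6, the IL-4 signal transducer, missed the threshold (adjusted p = 0.112, log2 fold change -0.10), except under scaling by total counts (adjusted p = 0.0102; range over its alternatives 0.0102 to 0.436). Of the RNA decay factors, Zfp36 (tristetraprolin), which binds AU-rich messages of cytokines, rose 1.35-fold (adjusted p = 0.00129). The endonuclease gene Zc3h12a (regnase-1) fell by 0.37 on the log2 scale (adjusted p = 1.30e-05). Without Cd226-/- replicates 2 and 3, fewer genes of the regulator list were called higher, and fewer of all genes tested were too.

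By library-to-library pattern, the genes most like Ccl12 over the 6 libraries were B3gnt2, Adam9 and Hivep1, with Pearson's r of log2 CPM of 0.999, 0.998 and 0.998. Those most like Ccl2 were Dis3, Scaf8 and Asun, at 0.993, 0.992 and 0.991. Of 10541 other genes averaging 50 counts or more, 478 had r above 0.95 with Ccl12 and 102 with Ccl2. The 6 libraries fall into 2 genotypes that these points share, and the values are a description with no test.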

How the data were processed

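RNA was sequenced from 6 libraries. Per the labels' protocols it was extracted with Trizol, and libraries followed standard Illumina procedures. The authors deposited raw read counts per gene; HISAT2 and GRCm38 are named in the submitters' processing notes. No source used here gives versions, the counting tool, the annotation or the strand setting. RefSeq GRCm38.p6 holds 90.0% of the table's symbols and GENCODE M21 73.7%. Each column was matched to a library by its title, and 0 columns were left unused.

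Members and gene lists were chosen with earlier results of these data known. Counts were filtered with filterByExpr, scaled by TMM and tested with edgeR 4.0.16 (R 4.3.3; robust quasi-likelihood F-test, two-sided, genotype as the only term), adjusted by Benjamini-Hochberg over 13215 genes at a threshold of 0.05. Standard errors are the log2 fold change over the square root of F. The biological coefficient of variation was 6.75%. The genes named were all 10 members, called genes of the other lists (at most 8 a list by p), Ccr1, Ccr2, Ccr4, Irf4, Stat6, Rela and Zfp36 whatever their values, and the 3 genes most like the members with the largest rise and fall; 1 further receptor gene is counted but not reported here. Ccl11, Ccl24, Ccl25, Dpp4 and the markers Itgax, Flt3, Zbtb46, Clec9a, Cd209a, Xcr1, Siglech, Ly6c2 and Lyz2 were named after their values were seen.

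Alternatives were DESeq2 (1.42.0) size factors, total-count scaling, no filter, a minimum mean of 5 CPM, limma-voom (limma 3.58.1), the Wald test of DESeq2, a replicate block, each library left out, and Cd226-/- replicates 2 and 3 left out together. In that last fit the spread comes from WT, and the single Cd226-/- library is taken to vary as WT does. Replicates of a genotype differed by more than counting noise (chi-square over degrees of freedom 2.17 to 7.76, lowest for Cd226-/- replicates 2 and 3), so all were kept. The steps were tested on simulated data. PCR duplicates are not separated, so intervals and floors on counts cover counting error only.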

Additional observations from a re-analysis of the deposited data

How the results depend on the processing

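The number of genes called stayed within 1.5 times 4086 in all 14 alternatives (2957 to 4537). Ccl2, Ccl5, Ccl12 and Ccl22 kept their direction and stayed under the threshold in all 14, with log2 fold changes of -0.34 to -0.20, 0.55 to 0.70, 0.78 to 0.96 and 0.45 to 0.72. Ccl4, Ccl6 and Ccl9 were called in none. The log2 ratio for Ccl17 ranged from -2.16 to -0.79. Ccl3 passed with no filter (-0.36), with the replicate block (-0.34, adjusted p = 0.0215) and, among libraries left out, without WT replicate 3 (-0.53). It ranged from -0.53 to -0.21 with 1 library left out and from -0.57 to -0.21 over all 14. Ccl7 passed when Cd226-/- replicate 1 was the single library of its genotype (-0.20). The members called lower were therefore 2 with no filter, with the replicate block and with that single library, and 1 to 2 with 1 library left out. The causes were not tested. Regulators called higher numbered 8 with that single library; those called lower numbered 1 at a mean of 5 CPM and by DESeq2's Wald test, and 1 to 2 with 1 library left out. The replicate numbers did not pair the libraries (r of deviations -0.01 to 0.02 between same-numbered libraries); the block gave 4137 calls against 4086 and changed no other member's call. With 3 libraries per genotype the 95% intervals of Ccl3, Ccl4, Ccl6 and Ccl9 leave room for changes of over 0.30 on the log2 scale. Ccl17 has too few counts to be tested.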

Other observations

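The low level of Ccl3 and Ccl4 relative to Ccl5 was seen in every library. The limit given above for reads from the Ccl3 and Ccl4 overlap holds for their levels and ratio here. Per length, Ccl3 was 20.2 to 27.9 CPM per kb in Cd226-/- and 22.6 to 35.7 in WT libraries, and Ccl4 16.4 to 20.6 in Cd226-/- and 14.6 to 18.2 in WT libraries, where Ccl5 had 7338 to 8396 in Cd226-/- and 4967 to 5376 in WT libraries. The ratio of Ccl3 to Ccl4 per length was 0.980, 1.70 and 1.17 in Cd226-/- replicates 1 to 3 and 2.23, 1.97 and 1.49 in WT replicates 1 to 3, so that Cd226-/- replicate 2 lay within the WT range. Other RefSeq genes whose bounds overlap a member had few counts: Gm32650, over Ccl5, had 13, 17 and 13 counts in Cd226-/- and 9, 3 and 10 in WT libraries, and E230016K23Rik, over Ccl6, had 1 to 4 counts in every library.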
